A study of Mus musculus with 8 samples.

Results

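The genes described here are 6 ion channel genes of the vessel wall: the potassium channel genes Kcnma1, Kcnmb1, Kcnc4, Kcnj2 and Kcnn4 and the mechanosensitive channel gene Piezo1. They were found by matching mouse symbols to the Ensembl identifiers of a deposited table of 1329 genes, and all 6 were present. Polyadenylated RNA of the ascending aorta was sequenced in Fbn1mgR/mgR mice, which express too little fibrillin-1 and are used to model Marfan syndrome. Mice of the treated group were dosed by mouth with DT-061, a small-molecule activator of protein phosphatase 2A, at 5 mg/kg and 2 times daily for 4 weeks, starting at 5 weeks of age (4 libraries). Mice of the control group received the vehicle solution on the same schedule (4 libraries). Both groups carry the Fbn1mgR/mgR genotype, so every value below comes from diseased aorta and none is set against a wild-type vessel. No label states that each library came from a separate mouse, so p-values reflect only how these samples varied, and some of that variation may be technical.

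The membrane potential of vascular smooth muscle sets how much calcium enters through voltage-gated calcium channels, and so sets the tone of the vessel. Potassium channels that open let potassium leave the cell, hyperpolarize it and oppose contraction. The channel built from the Kcnma1 pore (the BK channel, opened by voltage and calcium) and its Kcnmb1 β1 subunit is known as a brake of this kind in arterial smooth muscle. Kcnj2 and Kcnn4 channels are known from endothelium and from other cells as well, and Piezo1 lets cations in when the membrane is stretched or sheared, in endothelium above all.

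The values are FPKM, that is, sequenced fragments scaled to the length of the gene and to the total mapped in the library. The deposited table had already been reduced by its authors to genes significant between the groups, so being in it says that a gene passed their choice. Here each gene was tested with limma on log2(FPKM + 1) of the 8 libraries, with Benjamini-Hochberg adjustment over the 1329 genes. Since the genes had been chosen on this same contrast, most were bound to pass. The p-values of single genes are therefore a description and no independent support. A difference is the mean of the DT-061 libraries minus that of the vehicle libraries on that scale, and "rose" and "fell" stand for an adjusted p under 0.05. By that test 95.4% of the table was called, 30.4% of it higher and 65.0% of it lower with DT-061, and 78.3% of genes had no overlap between the groups, 30.1% of the table being higher and 48.2% lower without overlap. All 6 channel genes were called, 3 higher and 3 lower as deposited. Of the lower ones, Piezo1 turned to higher with both other scalings and Kcnj2 with quantile normalization, in no case with an adjusted p under 0.05. Kcnn4 lost its call with both scalings and Kcnj2 with median rescaling. Both scalings presuppose that rises and falls balance, which a preselected table may not do. As deposited, 5 of the 6 genes showed no overlap between the groups (3 higher and 2 lower). The shares that were called and that showed no overlap are close to those of the whole selected table. The median of the 6 differences, 0.09, fell in the gap between 3 genes at 0.55 or more and 3 at -0.37 or less, so it describes none of them. Over all 1329 genes the median was -0.58.

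The libraries held 14100000 to 22200000 fragments, a total read back from how low FPKM values step from gene to gene. Of the contractile smooth muscle markers fixed for this comparison, 10 of 17 were in the table and all 10 rose (Acta2 alone turned to lower with quantile normalization), with a summed level of 16730 to 25314 FPKM with DT-061 and 9233 to 14472 FPKM with vehicle, so the tissue carried the markers of its main cell type. DT-061 library 3 had the highest contractile score (mean log2(FPKM + 1)), 9.76 against 9.23 to 9.40 in the other DT-061 libraries and 8.49 to 8.96 with vehicle. Of the other cell types' markers, 16 of the 17 T and NK cell genes in the table fell, as did all 4 monocyte and macrophage, all 5 B and plasma cell, all 3 neutrophil and mast cell, all 3 fibroblast genes and the 1 adipocyte gene, though of the 33 genes in these lists 3 turned to higher and 6 lost the call with median rescaling, and 5 turned and 17 lost it with quantile normalization, among them all the T and NK cell and neutrophil and mast cell calls. Of 9 nerve and glia genes, 1 rose and 1 fell, and no red cell or cardiac and skeletal muscle marker was in the table. Vehicle library 4 stood apart from the other vehicle libraries, with a T and NK cell score of 0.60 against 1.39 to 2.41. In bulk tissue, fewer cells of a type and less RNA per cell cannot be told apart.

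Both subunit genes of the BK channel rose. Kcnma1, the pore-forming α subunit, had 3.74, 4.14, 6.52 and 3.36 FPKM in DT-061 libraries 1 to 4 and 2.27, 2.65, 2.28 and 2.24 FPKM in vehicle libraries 1 to 4. Every DT-061 library lay above every vehicle library, and library 3 lay well above the other DT-061 libraries, while the vehicle libraries were tightly grouped. The means were 4.44 ± 1.42 FPKM with DT-061 and 2.36 ± 0.192 FPKM with vehicle (SD, n = 4 each), a 1.88-fold higher level. The log2 difference was 0.66 ± 0.19 (SE; limma adjusted p = 0.018). Without DT-061 library 3 the level was 1.59-fold higher and the log2 difference 0.50.

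Kcnmb1, the smooth muscle β1 subunit that raises the calcium sensitivity of the pore, had 59.1, 56.5, 59.0 and 48.9 FPKM with DT-061 and 31.0, 41.7, 33.9 and 45.8 FPKM with vehicle. The groups did not overlap, but DT-061 library 4 and vehicle library 4 nearly met. Here library 3 was like DT-061 libraries 1 and 2, unlike its place for Kcnma1. The means were 55.9 ± 4.79 FPKM with DT-061 and 38.1 ± 6.85 FPKM with vehicle (SD, n = 4 each), a 1.47-fold higher level, with a log2 difference of 0.55 ± 0.14 (SE; limma adjusted p = 0.017). The rises of Kcnma1 and Kcnmb1 stood at the 94.1 and 89.6 percentiles of all differences in the table, most of which were negative.

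Windows around a RefSeq start of Kcnma1, Kcnmb1 and Kcnc4, the genes that rose, are shown because the 3 moved the same way and differ in base composition. Each runs from 250 bases before to 50 bases after a RefSeq start of the gene on GRCm38.p6, 5′ to 3′ on the gene's strand, and capitals mark the GC box, GGGCGG on either strand. They lie at chr14:24004156-24004455 (minus strand), chr11:33962763-33963062 (plus strand) and chr3:107458849-107459148 (minus strand). The GENCODE genes of Kcnma1 and Kcnc4 begin further upstream, at 24014491 and 107459552, so both windows lie inside the GENCODE gene. Kcnc4 has 1 GENCODE transcript, so its window lies downstream of its only GENCODE start and need not be a promoter. Kcnma1 has 38 transcripts, and its window describes 1 RefSeq start.
Kcnma1: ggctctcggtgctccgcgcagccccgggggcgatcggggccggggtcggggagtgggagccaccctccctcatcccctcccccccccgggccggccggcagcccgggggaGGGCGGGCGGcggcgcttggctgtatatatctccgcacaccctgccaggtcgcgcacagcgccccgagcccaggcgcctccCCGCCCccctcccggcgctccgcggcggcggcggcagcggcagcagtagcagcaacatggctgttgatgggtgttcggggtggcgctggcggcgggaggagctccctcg
Kcnmb1: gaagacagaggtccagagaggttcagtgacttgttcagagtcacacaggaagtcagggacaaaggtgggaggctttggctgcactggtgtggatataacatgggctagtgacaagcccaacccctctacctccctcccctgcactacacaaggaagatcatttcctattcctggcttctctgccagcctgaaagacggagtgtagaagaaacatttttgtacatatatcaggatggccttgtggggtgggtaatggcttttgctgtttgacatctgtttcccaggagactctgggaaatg
Kcnc4: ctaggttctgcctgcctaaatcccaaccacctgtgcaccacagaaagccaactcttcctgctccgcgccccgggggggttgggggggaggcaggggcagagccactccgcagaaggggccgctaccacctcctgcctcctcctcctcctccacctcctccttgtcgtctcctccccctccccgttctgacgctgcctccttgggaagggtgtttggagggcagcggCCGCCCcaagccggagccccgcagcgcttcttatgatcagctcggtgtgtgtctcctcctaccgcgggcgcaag
The Kcnma1 window was 78.0% G and C, the Kcnc4 window 66.7% and the Kcnmb1 window 49.7%, against a median of 52.7% over all 32851 promoters in the RefSeq table. The GC box occurred 3 times in the Kcnma1 window, 2 of them overlapping, 1 time in that of Kcnc4 and not in that of Kcnmb1, and 35.7% of all promoters held at least 1. The windows of Kcnj2, Kcnn4 and Piezo1 held 2, 1 and 1 GC boxes. The CArG box, the element bound by serum response factor in many contractile genes, was searched on both strands in all 6 windows and was in none of them, while 1.63% of all promoters held it. The TATA box TATAAA was found in the window of Piezo1 alone among the 6, and in 13.6% of all promoters. These matches describe letters in short windows and say nothing about binding.

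Kcnc4 encodes Kv3.4, a voltage-gated potassium channel that inactivates fast. It had 5.01, 4.50, 11.6 and 6.61 FPKM in DT-061 libraries 1 to 4 and 2.07, 2.81, 1.67 and 2.54 FPKM in vehicle libraries 1 to 4. All DT-061 libraries lay above all vehicle libraries, and DT-061 library 3 was again the highest. The means were 6.94 ± 3.26 FPKM with DT-061 and 2.27 ± 0.504 FPKM with vehicle (SD, n = 4 each), a 3.05-fold higher level and 2.36-fold higher without DT-061 library 3. The log2 difference of 1.21 ± 0.27 (SE; limma adjusted p = 0.016) was at the 99.8 percentile of the table, and it was 0.96 without that library.

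**Figure D1:**
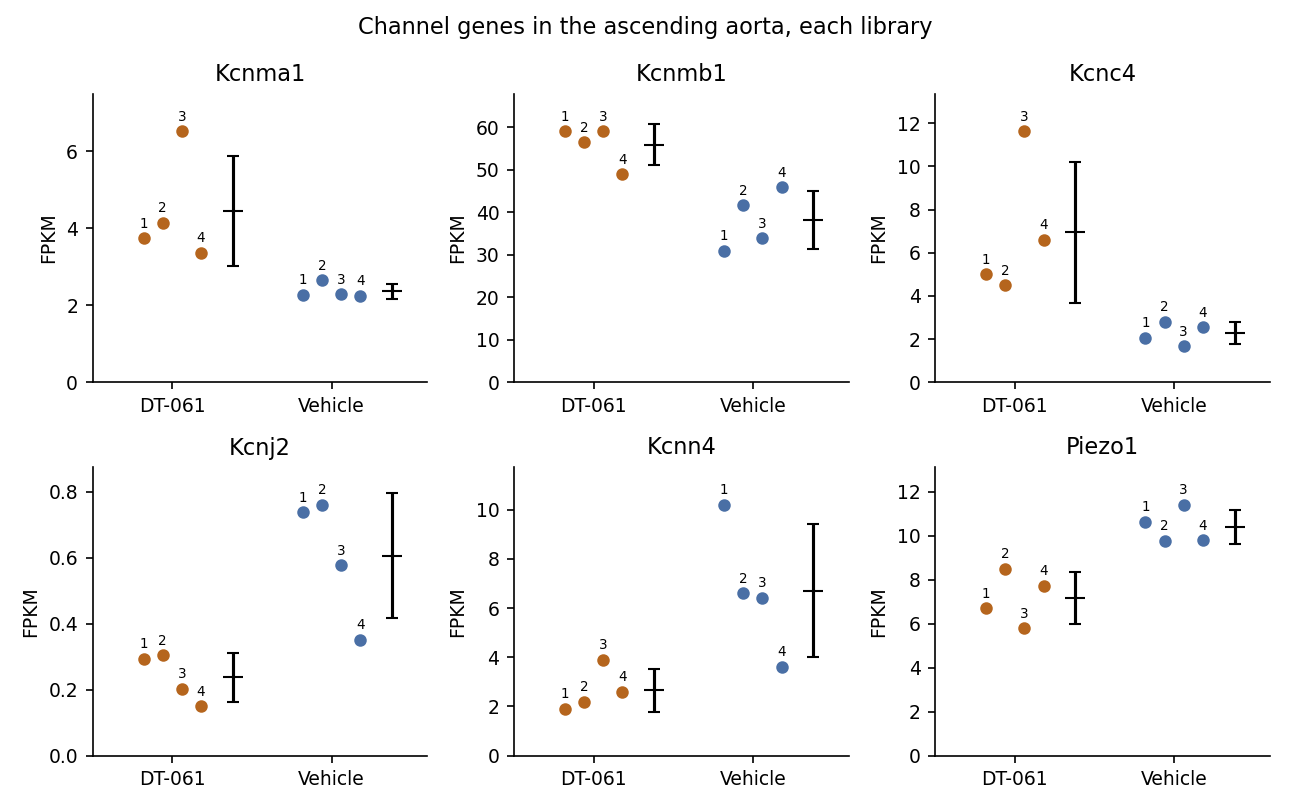
FPKM of the 6 channel genes in each library (points, numbered by library), with DT-061 and vehicle side by side and the mean ± SD at the right of each group (n = 4). DT-061 lies above vehicle without overlap for Kcnma1, Kcnmb1 and Kcnc4 and below it for Kcnj2 and Piezo1, while DT-061 library 3 (3.90 FPKM) and vehicle library 4 (3.62 FPKM) overlap for Kcnn4. These are deposited values. Piezo1 turned to higher with median rescaling and with quantile normalization, and Kcnj2 with quantile normalization, in no case with an adjusted p under 0.05.

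The 3 genes that were lower with DT-061 had different levels and different support. Kcnj2, the inward rectifier Kir2.1, had 0.294, 0.306, 0.202 and 0.150 FPKM in DT-061 libraries and 0.738, 0.761, 0.578 and 0.351 FPKM in vehicle libraries. The groups did not overlap, and vehicle library 4 lay closest to the DT-061 libraries. The means were 0.238 ± 0.0747 FPKM with DT-061 and 0.607 ± 0.189 FPKM with vehicle (SD, n = 4 each), a 2.55-fold lower level. On the log2(FPKM + 1) scale, which shrinks changes of so low a gene, it fell by 0.37 with an SE of 0.11 (limma adjusted p = 0.019). With quantile normalization it turned to higher, at 0.30, without a call (limma adjusted p = 0.073).

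Kcnj2 was low enough for its fragments to be counted back. They came to 23, 26, 16 and 12 fragments in the DT-061 libraries and 65, 92, 55 and 27 in the vehicle libraries, each within 0.0313 of a whole number. The library totals were themselves chosen to make low values whole, and Kcnj2 was not kept out of that choice. Its closeness to whole numbers is therefore no independent check. Vehicle library 4 therefore had an exact 95% Poisson interval of 0.232 to 0.511 FPKM, which overlaps that of DT-061 library 2, 0.200 to 0.448 FPKM. The intervals cover counting error only. With the exonic lengths of the annotation, the other 5 genes had 107 to 3876 fragments per library, too many for closeness to a whole number to be judged.

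Kcnn4, the intermediate conductance calcium-activated potassium channel KCa3.1, is known from endothelium, from lymphocytes and macrophages, and from smooth muscle that has lost its contractile state. It had 1.92, 2.20, 3.90 and 2.61 FPKM in DT-061 libraries 1 to 4 and 10.2, 6.60, 6.42 and 3.62 FPKM in vehicle libraries 1 to 4. The groups overlapped, since DT-061 library 3 lay above vehicle library 4. The means were 2.65 ± 0.874 FPKM with DT-061 and 6.71 ± 2.70 FPKM with vehicle (SD, n = 4 each), a 2.53-fold lower level. On the log2 scale it fell by 1.04 with an SE of 0.29 (limma adjusted p = 0.018), and it lost the call with both scalings, at -0.35 with median rescaling and -0.32 with quantile normalization.

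Markers of immune cells moved with Kcnn4. The summed level of the 17 T and NK cell markers in the table, of 23 listed, was 4.05 to 11.3 FPKM with DT-061 and 9.82 to 99.0 FPKM with vehicle. That of the 4 monocyte and macrophage markers, of 20 listed, was 14.0 to 72.7 FPKM with DT-061 and 83.4 to 376 FPKM with vehicle. Vehicle library 1 had the highest Kcnn4, the highest T and NK cell score (2.41) and the highest monocyte and macrophage score (5.83), and vehicle library 4 the lowest of all 3 among vehicle libraries (scores of 0.60 and 3.18). DT-061 library 3 departs from this order, with the highest Kcnn4 of its group beside the lowest scores, 0.30 and 1.56. The part of these cells in the Kcnn4 difference was not tested.

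Piezo1, the stretch-activated cation channel, had 6.70, 8.50, 5.80 and 7.72 FPKM with DT-061 and 10.6, 9.78, 11.4 and 9.78 FPKM with vehicle. The groups did not overlap, and the vehicle libraries were tightly grouped. The means were 7.18 ± 1.18 FPKM with DT-061 and 10.4 ± 0.784 FPKM with vehicle (SD, n = 4 each), a 1.45-fold lower level. On the log2 scale it fell by 0.49 with an SE of 0.13 (limma adjusted p = 0.018), but it turned to higher with both scalings, at 0.27 with median rescaling (limma adjusted p = 0.26) and 0.02 with quantile normalization (limma adjusted p = 0.95).

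Piezo1 (GRCm38 chromosome 8, 122481698 to 122551329, minus strand) shares 2441 of its 9935 exonic bases, 24.6%, with exons of Ctu2 on the opposite strand. Whether the counting used strand is not stated in the labels, so reads of these genes cannot be told apart there. Of the markers of endothelium, a cell type in which Piezo1 and Kcnj2 channels are known to act, 2 of 18 were in the table. These were Plvap and Robo4, and both fell (both lost the call with median rescaling and 1 of them with quantile normalization). Their summed level was 19.1 to 26.0 FPKM with DT-061 and 28.7 to 62.5 FPKM with vehicle. Taken singly, only 1 of the 2 had no overlap between the groups. The part of endothelial cells in the differences of Piezo1 and Kcnj2 was not tested.

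**Figure D2:**
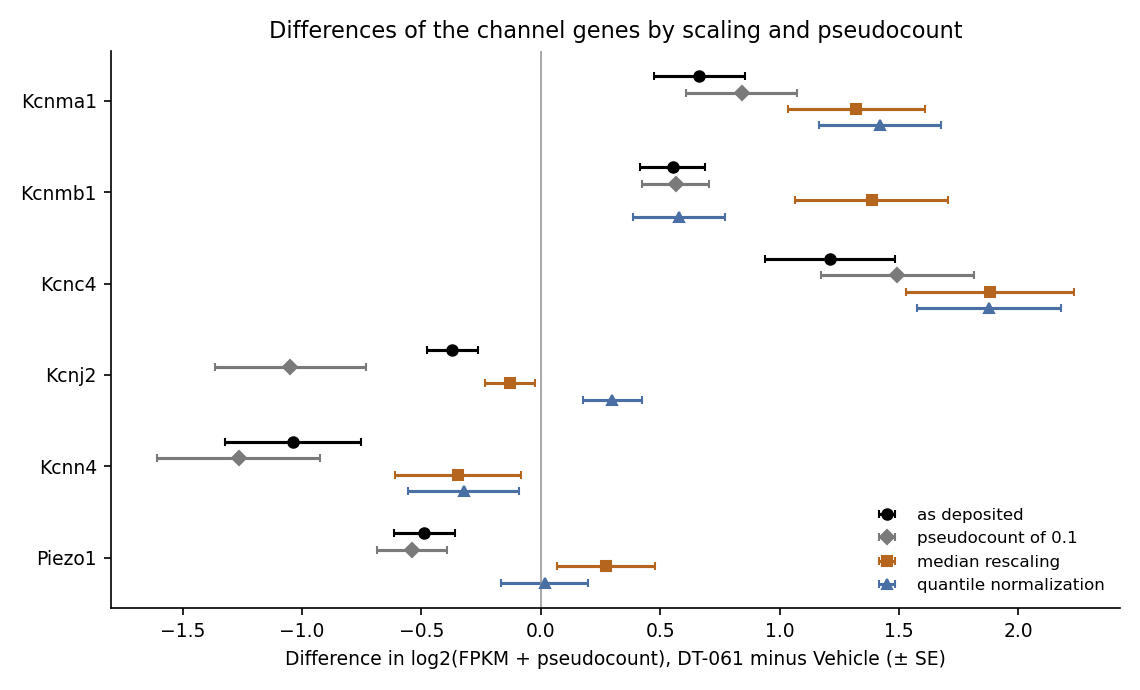
Difference in log2(FPKM + pseudocount), DT-061 minus vehicle, with its SE (bars), for the 6 channel genes as deposited, with a pseudocount of 0.1, with median rescaling and with quantile normalization. Kcnma1, Kcnmb1 and Kcnc4 lie above 0 under all 4, Kcnn4 below 0 under all 4, and Kcnj2 and Piezo1 on both sides.

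Other scalings of the libraries moved the median difference upward. Rescaling each library to the same median moved all differences by a median of 0.69 and quantile normalization by 0.56. Both presuppose that rises and falls balance, which a preselected table may not do. As deposited, 435 genes were higher with DT-061 and 894 lower. Kcnma1, Kcnmb1 and Kcnc4 kept their calls under both, at 1.32, 1.39 and 1.88 with median rescaling and 1.42, 0.58 and 1.88 with quantile normalization (limma adjusted p of 0.0047 to 0.036). Kcnj2 and Kcnn4 lost theirs with median rescaling, at -0.13 and -0.35 (limma adjusted p = 0.30 and 0.27). An upward shift favours genes that were already higher and counts against those that were lower, so the calls kept by Kcnma1, Kcnmb1 and Kcnc4 under median rescaling follow from their direction and are no sign of stability. For the same reason, calls lost or turned among the lower genes cannot decide whether those genes were lower.

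A ratio of genes within a library does not change when all values of that library are multiplied by 1 factor, so 4 such ratios were compared by an exact two-sided permutation test, whose smallest possible p is 0.029 with 4 against 4. Kcnmb1 stood at 9.05 to 15.8 times the FPKM of Kcnma1 with DT-061 and 13.7 to 20.4 times with vehicle. The log2 ratio was 3.70 ± 0.357 in DT-061 libraries and 4.00 ± 0.250 in vehicle libraries (SD, n = 4 each), a difference of -0.30 that was within the spread between libraries (exact permutation p = 0.26, adjusted over the 4 ratios p = 0.34). DT-061 library 3 had the lowest ratio, 3.18, and vehicle library 4 the highest, 4.35. Without both, the difference was -0.01. Quantile normalization, which is not 1 factor per library, changed it to -0.84 (exact permutation p = 0.029). The FPKM of Kcnma1 depends on the length it was divided by. The exons of its 38 annotated transcripts, merged, cover 16976 bases while the longest transcript has 12094, so its level against Kcnmb1, which has a single annotated transcript of 4191 bases, is uncertain. Of the merged Kcnma1 bases, 1016 (5.98%) are shared with exons of 4930519K11Rik on the opposite strand.

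Set against Myh11, the smooth muscle myosin heavy chain, neither BK subunit differed beyond the spread between libraries in the deposited values. Myh11 itself had 1052 ± 205 FPKM with DT-061 and 605 ± 93.6 FPKM with vehicle (SD, n = 4 each) and rose, with a log2 difference of 0.79 (limma adjusted p = 0.016). The log2 ratio of Kcnma1 to Myh11 was -7.92 ± 0.207 in DT-061 libraries and -7.99 ± 0.142 in vehicle libraries (SD, n = 4 each; exact permutation p = 0.60, adjusted over the 4 ratios p = 0.60). That of Kcnmb1 to Myh11 was -4.22 ± 0.228 in DT-061 libraries and -3.99 ± 0.175 in vehicle libraries (SD, n = 4 each; exact permutation p = 0.26, adjusted over the 4 ratios p = 0.34). After quantile normalization the difference of Kcnma1 to Myh11 was 0.79 (exact permutation p = 0.029), against 0.07 as deposited, and that of Kcnmb1 to Myh11 was -0.05. With 4 libraries a group, the deposited p-values do not show that the ratios were equal.

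The log2 ratio of Kcnc4 to Myh11 was -7.63, -7.67, -6.86 and -7.16 in DT-061 libraries 1 to 4 and -7.93, -8.02, -8.43 and -7.91 in vehicle libraries 1 to 4. All 4 DT-061 libraries lay above all 4 vehicle libraries, a difference of 0.74. The exact permutation p was 0.029, the smallest that 4 against 4 can give, and adjusted over the 4 ratios p = 0.11, so the ratio did not pass the correction. Leaving out any 1 library gave differences of 0.58 to 0.85, all in the same direction.

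**Figure D3:**
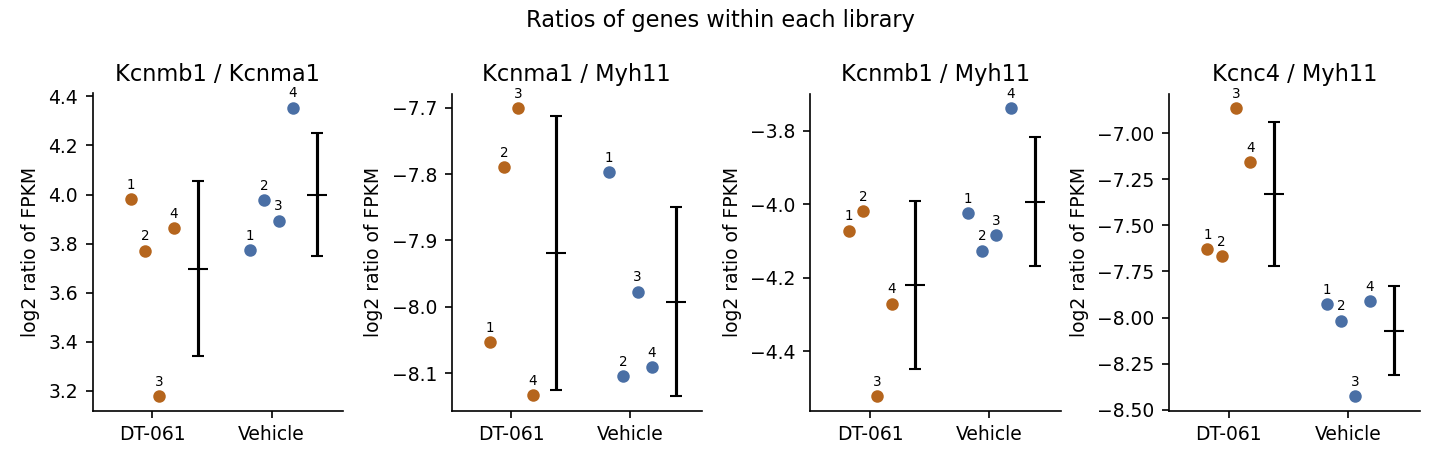
Log2 ratio of FPKM within each library (points, numbered by library) for Kcnmb1 to Kcnma1 and for Kcnma1, Kcnmb1 and Kcnc4 to Myh11, with DT-061 left of vehicle and the mean ± SD beside each group (n = 4). The groups overlap in the first 3 ratios and do not in that of Kcnc4 to Myh11, whose means are -7.33 and -8.07. The vertical axes do not start at 0.

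By level, Kcnmb1 was first in both groups and Kcnj2 last, with no overlap with their neighbours. With DT-061 the order of mean FPKM was Kcnmb1, Piezo1, Kcnc4, Kcnma1, Kcnn4 and Kcnj2, and the ranges of Piezo1 and Kcnc4, of Kcnc4 and Kcnma1 and of Kcnma1 and Kcnn4 overlapped. With vehicle it was Kcnmb1, Piezo1, Kcnn4, Kcnma1, Kcnc4 and Kcnj2, and the ranges of Piezo1 and Kcnn4 and of Kcnma1 and Kcnc4 overlapped. Kcnc4 and Kcnn4 thus exchanged places between the groups.

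Few other channel genes were in the table. Of 191 listed genes of potassium, mechanosensitive, calcium, chloride and sodium channels and their regulators, 13 were present, among them 8 of 97 potassium channel genes. No other BK subunit or BK regulator, no ATP-sensitive channel, no two-pore domain channel and none of the 18 other mechanosensitive channels listed was in the table analysed here. Of the 7 channel genes besides the 6, 1 rose, 2 fell and 4 did not pass, so 3 of 7 were called, against 95.4% of the table. In all 7 the groups did not overlap, against 78.3% of the table.

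Kcnab1 and Kcnab2 encode β subunits of voltage-gated potassium channels and moved in opposite directions. Kcnab1 had 18.5, 16.7, 26.0 and 18.3 FPKM with DT-061 and 10.8, 14.7, 13.9 and 15.4 FPKM with vehicle. It rose by 0.50 ± 0.16 on the log2 scale (SE; limma adjusted p = 0.023), and DT-061 library 3 was the highest, as for Kcnma1 and Kcnc4. Kcnab2, also expressed in leukocytes, had 2.17, 2.63, 0.650 and 2.18 FPKM with DT-061 and 7.48, 4.56, 3.60 and 3.61 FPKM with vehicle, and library 3 was the lowest. It fell by 1.01 with an SE of 0.31 (limma adjusted p = 0.020) and lost the call with both scalings, at -0.42 and -0.14.

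Kcnip4, a calcium-binding partner of Kv4 channels, had 0.695, 1.17, 3.78 and 0.905 FPKM with DT-061 and 0.463, 0.506, 0.50 and 0.678 FPKM with vehicle. Its mean with DT-061 was carried by library 3, and the difference of 0.65 ± 0.31 did not pass (SE; limma adjusted p = 0.073). The sodium channel gene Scn2a had 1.68 ± 0.369 FPKM with DT-061 and 1.08 ± 0.205 FPKM with vehicle (SD, n = 4 each), and its difference of 0.36 did not pass either (limma adjusted p = 0.059). Both passed with each scaling, with adjusted p of 0.011 to 0.036. The heat- and capsaicin-gated channel gene Trpv1 had 0.0653 ± 0.0254 FPKM with DT-061 and 0.373 ± 0.144 FPKM with vehicle (SD, n = 4 each) and fell by 0.36 (limma adjusted p = 0.016). With quantile normalization Trpv1 turned to higher, at 0.09, without a call (limma adjusted p = 0.40). The calcium channel genes Cacna1e and Cacna1s had differences of -0.19 and -0.23 that did not pass (limma adjusted p = 0.16 and 0.10). With a pseudocount of 0.1, which shrinks low values less, Cacna1s passed at -1.16 (limma adjusted p = 0.037), as did Kcnip4 at 1.16 (0.0499), while Cacna1e at -0.91 (0.087) and Scn2a at 0.58 (0.058) did not. With quantile normalization Cacna1e and Cacna1s turned to higher, at 0.14 and 0.07, without a call (limma adjusted p = 0.078 and 0.37). Cacna1s was listed at 0 in 2 DT-061 libraries.

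**Figure D4:**
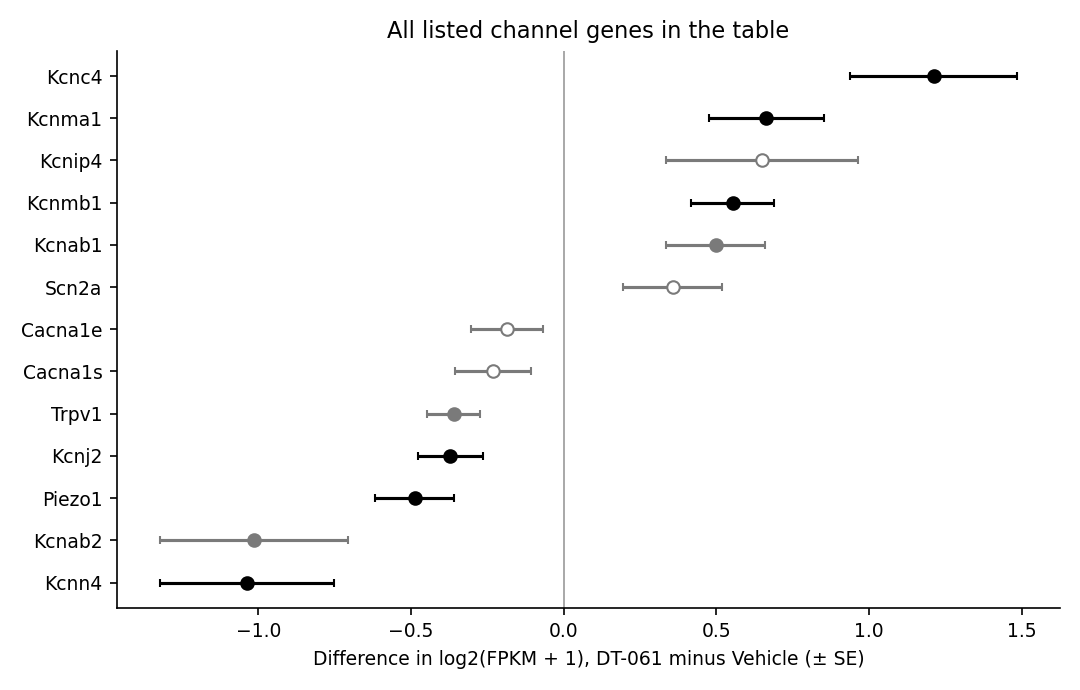
Difference in log2(FPKM + 1), DT-061 minus vehicle, with its SE (bars), for the 13 listed channel genes in the table, ordered by size. Black points are the 6 channel genes described first and grey points the 7 others, and open points did not pass (limma adjusted p of 0.059 to 0.16). Kcnc4 has the highest difference, 1.21, and Kcnn4 the lowest, -1.04. Of the genes below 0, Kcnj2, Piezo1, Trpv1, Cacna1e and Cacna1s turned to higher with at least 1 scaling, in no case with an adjusted p under 0.05.

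Genes whose values varied most like those of the 6 within the groups were named by the Pearson r of deviations from the group means over the 8 libraries, as a description among 1009 protein coding genes with a mean of at least 1 FPKM. For Kcnma1 these were Cirbp (r = 0.97), Ypel4 (0.96) and Gnao1 (0.95), and without DT-061 library 3 the same r was 0.71, 0.69 and 0.58, so this likeness rests largely on that library. For Kcnmb1 they were Slc8a2, a sodium-calcium exchanger gene, Bcam and Crabp2, with r of 0.97, 0.95 and 0.93, and 0.97, 0.99 and 0.94 without that library. For Kcnc4 they were Fuz, Ntrk3 and Abhd14b, with r of 0.98 to 0.99, and 0.91 to 0.96 without it. For Kcnj2 they were S100a8, a neutrophil and monocyte protein gene, Stx11 and Tor3a (0.95, 0.93 and 0.91). For Kcnn4 they were Tes, Foxj2 and H2-T22 (0.96, 0.94 and 0.93), and for Piezo1 Cdv3, Nras and Adgrg3 (0.99, 0.93 and 0.92). The difference between the groups is no part of this r. Tes and Foxj2 were higher with DT-061 (0.37 and 0.22) while Kcnn4 was lower, and Crabp2 was lower (-1.07) while Kcnmb1 was higher. The other named genes differed in the direction of their channel gene. Since each r was the highest among many genes over 8 libraries, values of this size can arise without a relation.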

How the data were processed

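Poly-A RNA of 8 ascending aorta libraries was sequenced as paired-end reads, per the labels' protocols. The submitters' processing notes name featureCounts 1.5.0-p3, HISAT2 2.0.5 and StringTie 1.3.3b, with no role for each, and the mm10 build. The deposited values are FPKM made by the authors, per the file headers. The table's deposited name says that its genes were significant between the groups, while the tool and threshold of that choice are not stated. Symbols were found for 1328 of 1329 genes. Places and exonic lengths came from GENCODE M21 on GRCm38, the build that mm10 names, and promoters from RefSeq on GRCm38.p6.

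The test was limma 3.58.1 (trend and robust options, R 4.3.3) on log2(FPKM + 1), with treatment as the only term. The code was run on simulated data with known changes. Those were independent normal values with most genes unchanged, equal numbers higher and lower, and the same spread in both groups. The selected table is unlike that, so the run does not check the calls made here. Ratios were tested with scipy 1.17.1. Library depth was recovered by finding the fragment total at which low FPKM values times exonic length become whole (within 0.03, up to 60 fragments, on genes already whole in at least 3 other libraries). At the chosen total 91.9% to 100% of 37 to 67 such preselected values per library were whole. Ratios were also taken after quantile normalization, chosen after seeing the data. The other settings varied were the pseudocount (0.1), a filter at a mean of 1 FPKM, limma without those options, both scalings, the replicate number as a block, leaving out each library, and leaving out DT-061 library 3 with vehicle library 4. Named were the 6 genes, the other genes of 8 channel lists in the table, Myh11, and 3 genes per member with the most similar deviations. The members, lists and tests were chosen with earlier results of these data known. Counts by list are descriptions, and no test of a list was made.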

Additional observations from a re-analysis of the deposited data

Results flagged for a closer look

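Of 20 groups of 4 values checked for a sample far from the others (the 6 channel genes and the 4 ratios, each with DT-061 and with vehicle), 1 was flagged, where chance flags about 1 in 20. Kcnma1 in vehicle library 2 (2.65 FPKM) was separated from the other vehicle libraries, which held 2.24 to 2.28 FPKM, by 0.901 of the group's range, above Dixon's critical value for 4 samples. All 4 values were below the lowest DT-061 value, 3.36 FPKM.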

How the results depend on the processing

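Kcnma1, Kcnmb1 and Kcnc4 kept direction and call under all 15 alternatives run for each, though the upward shift of the scalings favours genes that were higher. In a table chosen on this contrast, a kept call is no independent support for any of the 6 genes. Median rescaling ended the calls of Kcnj2 (-0.13) and Kcnn4 (-0.35) and turned Piezo1 to 0.27. Quantile normalization ended that of Kcnn4 (-0.32) and turned Kcnj2 to 0.30 and Piezo1 to 0.016, with no turned value called. The cause was not tested. Those scalings left 299 and 209 genes called lower, against 864 as deposited. Leaving out 1 library at a time, which leaves fewer samples, gave log2 differences of 0.50 to 0.76 for Kcnma1, 0.46 to 0.65 for Kcnmb1, 0.96 to 1.36 for Kcnc4, -0.45 to -0.32 for Kcnj2, -1.26 to -0.83 for Kcnn4 and -0.56 to -0.40 for Piezo1, with no call lost (limma adjusted p of 0.0048 to 0.044). In the whole table it gave 254 to 351 genes called higher, the fewest without vehicle library 3, and 652 to 881 lower, against 404 and 864. The ratio of Kcnc4 to Myh11 ran from 0.58 to 0.85 with 1 library left out (exact permutation p = 0.057, the smallest that 3 against 4 can give), and was 0.64 without DT-061 library 3 and vehicle library 4 (exact permutation p = 0.10, the smallest for 3 against 3). The ratio of Kcnma1 to Myh11 ran from 0.00081 to 0.14 and turned to -0.032 without those libraries together. That of Kcnmb1 to Kcnma1 ran from -0.40 to -0.13 and that of Kcnmb1 to Myh11 from -0.30 to -0.13. After quantile normalization, an alternative for ratios chosen after seeing the data, that of Kcnmb1 to Kcnma1 was -0.84 and that of Kcnma1 to Myh11 0.79 (exact permutation p = 0.029 for both). Kcnj2 has no value with the minimum mean of 1 FPKM. No pairing by replicate number was seen, though 4 libraries a group cannot exclude it. Same-numbered libraries had correlations of deviations of 0.18, -0.11, -0.05 and -0.47, and 1 of 4 DT-061 libraries correlated best with its own number. With the replicate number as a block, 204 of the 1329 genes were called higher and 630 lower, against 404 and 864. All 6 channel genes kept their calls, but only just under the threshold (limma adjusted p of 0.046 to 0.0499). With the same pairing, the ratio of Kcnc4 to Myh11, 0.74, had an exact sign-flip p of 0.13, the smallest that 4 pairs can give.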
